A study of Mus musculus with 12 samples.

Results

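The interferon-induced gene families were followed through SMART-seq libraries of mouse aortic endothelial cells, the cells that line the aorta. Members were chosen by gene symbol alone: the Ifi, Ifit and Ifitm genes, the Oas, Gbp, Irf, Irgm, Isg, Mx and Trim30 families, and Igtp, Stat2, Trim21, Trim25, Parp9, Parp14, Rsad2, Zbp1, Bst2, Usp18, Ddx58 and Dhx58. The pattern found 67 of the 10655 genes in the deposited table. Mx1 and Rnf213 were not analysed here. The pattern also takes in Irf2bp1, Irf2bp2 and Irf2bpl, which bind the factor Irf2 and are not themselves interferon regulatory factors. The series concerns a mother's high-fat diet and atherosclerosis in the offspring. Its 12 libraries form 4 groups of 3, each named by the mother's diet and then the offspring's diet. CD_WD libraries came from WD offspring of CD mothers, CD_CD libraries from CD offspring of CD mothers, WD_WD libraries from WD offspring of WD mothers, and WD_CD libraries from CD offspring of WD mothers. For the WD offspring, the series text states a repeated period on WD of 4 weeks. The first diet of a name was taken as the mother's because the series text puts the mothers first in its own group names. The labels state no genotype, strain, sex, age, sort or batch, and do not say whether replicates came from separate animals. The p-values therefore rest on the spread within these sets of 3, part of which may be technical, and an unlabelled batch and the offspring's diet cannot be told apart.

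Interferons are secreted proteins that make cells resistant to viruses and other intracellular microbes. Type I interferons act through Ifnar1 and Ifnar2, which activate a complex that holds Stat2 and Irf9 and binds a promoter element called ISRE. Interferon gamma, made mainly by T and NK cells, acts through Ifngr1 and Ifngr2, and many of its target promoters hold an element called GAS. Endothelial cells respond to both types, and many of the same genes are strongly expressed in macrophages and other leukocytes.

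Many interferon-induced promoters hold one of these elements, so the letters are shown first. RefSeq windows on the mouse build GRCm38.p6, running from 250 bases before the start of a gene to 50 after it, were found for 49 of the 67 members. The ISRE core searched was GAAANNGAAA and the GAS core TTCNNNGAA, each on both strands. An ISRE core was in the window of 27 of the 49 members (55.1%), against 3.99% of all 27025 genes with a window and 3.83% of the 8192 such genes in the deposited table. A GAS core was in 15 of the 49 (30.6%), against 9.55% and 8.18%. The first 2 windows below come from members higher in WD offspring of both mothers' diets: the one that holds an ISRE core, and the one with the smallest p with CD mothers that holds no core of either kind. They are Oas1a, at chr5:120907476-120907775 on the minus strand, with its joined ISRE cores and its GAS core in capitals, and Ifi30, at chr8:70766614-70766913 on the minus strand, with no core.
Oas1a: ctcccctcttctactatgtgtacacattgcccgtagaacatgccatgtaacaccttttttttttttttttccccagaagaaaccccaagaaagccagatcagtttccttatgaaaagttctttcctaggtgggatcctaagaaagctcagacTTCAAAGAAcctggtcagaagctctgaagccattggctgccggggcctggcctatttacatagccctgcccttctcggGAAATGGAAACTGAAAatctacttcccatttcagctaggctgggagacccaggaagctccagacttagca
Ifi30: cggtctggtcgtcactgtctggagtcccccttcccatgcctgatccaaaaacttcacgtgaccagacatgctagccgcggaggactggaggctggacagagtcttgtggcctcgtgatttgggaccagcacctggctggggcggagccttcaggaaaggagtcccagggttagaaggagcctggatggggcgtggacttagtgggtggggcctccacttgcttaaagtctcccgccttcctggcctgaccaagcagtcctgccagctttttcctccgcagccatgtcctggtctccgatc

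The next lines set ISRE runs of other members side by side, with the cores in capitals and 10 bases on each side, chosen after values were seen. Oas1g lies at chr5:120887606-120887641 and Oas1c at chr5:120812603-120812638, both on the minus strand, and they carry the 16 bases of the Oas1a run, on the opposite strand in Oas1c. Igtp lies at chr11:58199512-58199541 and Irgm2 at chr11:58214903-58214932, both on the plus strand, and they share their core. Isg15 lies at chr4:156200865-156200906 on the minus strand, Ifit1 at chr19:34640775-34640823 and Gbp2 at chr3:142620594-142620623, both on the plus strand.
Oas1g: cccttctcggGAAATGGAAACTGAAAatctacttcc
Oas1c: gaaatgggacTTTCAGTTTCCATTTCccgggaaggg
Igtp: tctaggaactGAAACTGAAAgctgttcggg
Irgm2: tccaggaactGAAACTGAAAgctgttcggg
Isg15: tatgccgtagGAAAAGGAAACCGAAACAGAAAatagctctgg
Ifit1: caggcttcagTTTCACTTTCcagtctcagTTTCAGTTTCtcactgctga
Gbp2: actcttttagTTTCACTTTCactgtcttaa

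Each library held between 4074413 and 19670570 reads in the table. The labelled cell type was checked against 12 pan-endothelial markers, whose summed normalised counts lay between 2051 and 33089 in CD_WD, between 64619.6 and 85236 in CD_CD, between 10512 and 17665 in WD_WD and between 52617 and 74575 in WD_CD. All 12 markers were detected in every library except Robo4 in WD_WD replicate 2. Macrophage and monocyte markers, 12 in number, summed to between 41328 and 510449 in CD_WD, between 21129 and 30271 in CD_CD, between 512702 and 945578 in WD_WD and between 10984 and 105541 in WD_CD. The 4 neutrophil markers found of 8 summed to between 24869 and 192565 in CD_WD, 104 and 416 in CD_CD, 13403 and 171225 in WD_WD, and 56.2 and 801 in WD_CD. Smooth muscle markers, 7 in number, summed to 1118 to 12144 in CD_WD, 46686 to 81504 in CD_CD, 8265 to 23462 in WD_WD and 11627 to 55269 in WD_CD. The 8 T and NK cell markers found of 11 summed to 2309 to 49872, 329.8 to 1948, 3401 to 18301 and 719.5 to 1906 in the same order. Under each mother's diet, every WD offspring library had a lower endothelial sum and higher macrophage and neutrophil sums than every CD offspring library. Sums here and below are not shares of a library's total. That total, the normalised counts over all genes, was itself higher in every WD offspring library than in every CD offspring library. CD_WD replicate 1 stood apart, with 2051 for the endothelial and 41328 for the macrophage list, and 335294 for the 4 B cell markers found of 6, against at most 16691 in any other library. In bulk RNA, fewer cells of a type and less RNA per cell cannot be told apart. How far these markers account for the members' differences was not tested.

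With CD mothers, 13 of the 67 members were higher in CD_WD than in CD_CD (19.4%), against 9.46% of all genes, and 0 were lower, against 5.55% of all genes. At an unadjusted p under 0.05, limma still gave 0 lower members, and edgeR and DESeq2 on recovered reads gave 2 each, of which DESeq2 called 1. A call means an adjusted p under 0.05 from limma, fitted over all 10655 genes on log2(normalised count + 1), the scale of every log2 difference below. With WD mothers, 18 members were higher in WD_WD than in WD_CD (26.9%), against 14.2% of all genes. Only 3 were lower there (4.48%), against 10.2% of all genes. The median log2 difference over the members was 0.67 with CD mothers, where 53 of 67 were above 0, and 0.76 with WD mothers, where 48 were. The same median over all genes was -0.02 with CD mothers and 0.01 with WD mothers. The summed normalised counts of the 67 members were 137919, 204919.9 and 222439.5 in CD_WD, against 49254, 48441 and 51719 in CD_CD. They were 161996, 157134 and 157943 in WD_WD, against 48939.8, 42713 and 51719.8 in WD_CD. Every WD offspring sum was above every CD offspring sum. The same held for the sum over all genes, so the member sums alone do not show a larger share of a library.

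The 2 offspring comparisons set different libraries against each other, but both came from 1 fit with 1 estimate of each gene's spread. Their calls are therefore not independent. Called higher in both were Ifi27l2a, Ifi30, Ifitm1, Irf5, Irf8, Isg20, Oas1a, Usp18 and Zbp1. These 9 are 69.2% of the 13 called with CD mothers and 50% of the 18 called with WD mothers. Over all genes the corresponding shares were 81.8% of 1008 and 54.4% of 1516. Another 4 members passed only with CD mothers, 9 rose and 3 fell only with WD mothers, and 42 passed in neither; no difference between the 2 comparisons passed a test of its own, as given further on. Without CD_WD replicate 1, 15 members were called with CD mothers and 25 with WD mothers, and the member median with CD mothers was 1.09.

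**Figure D1:**
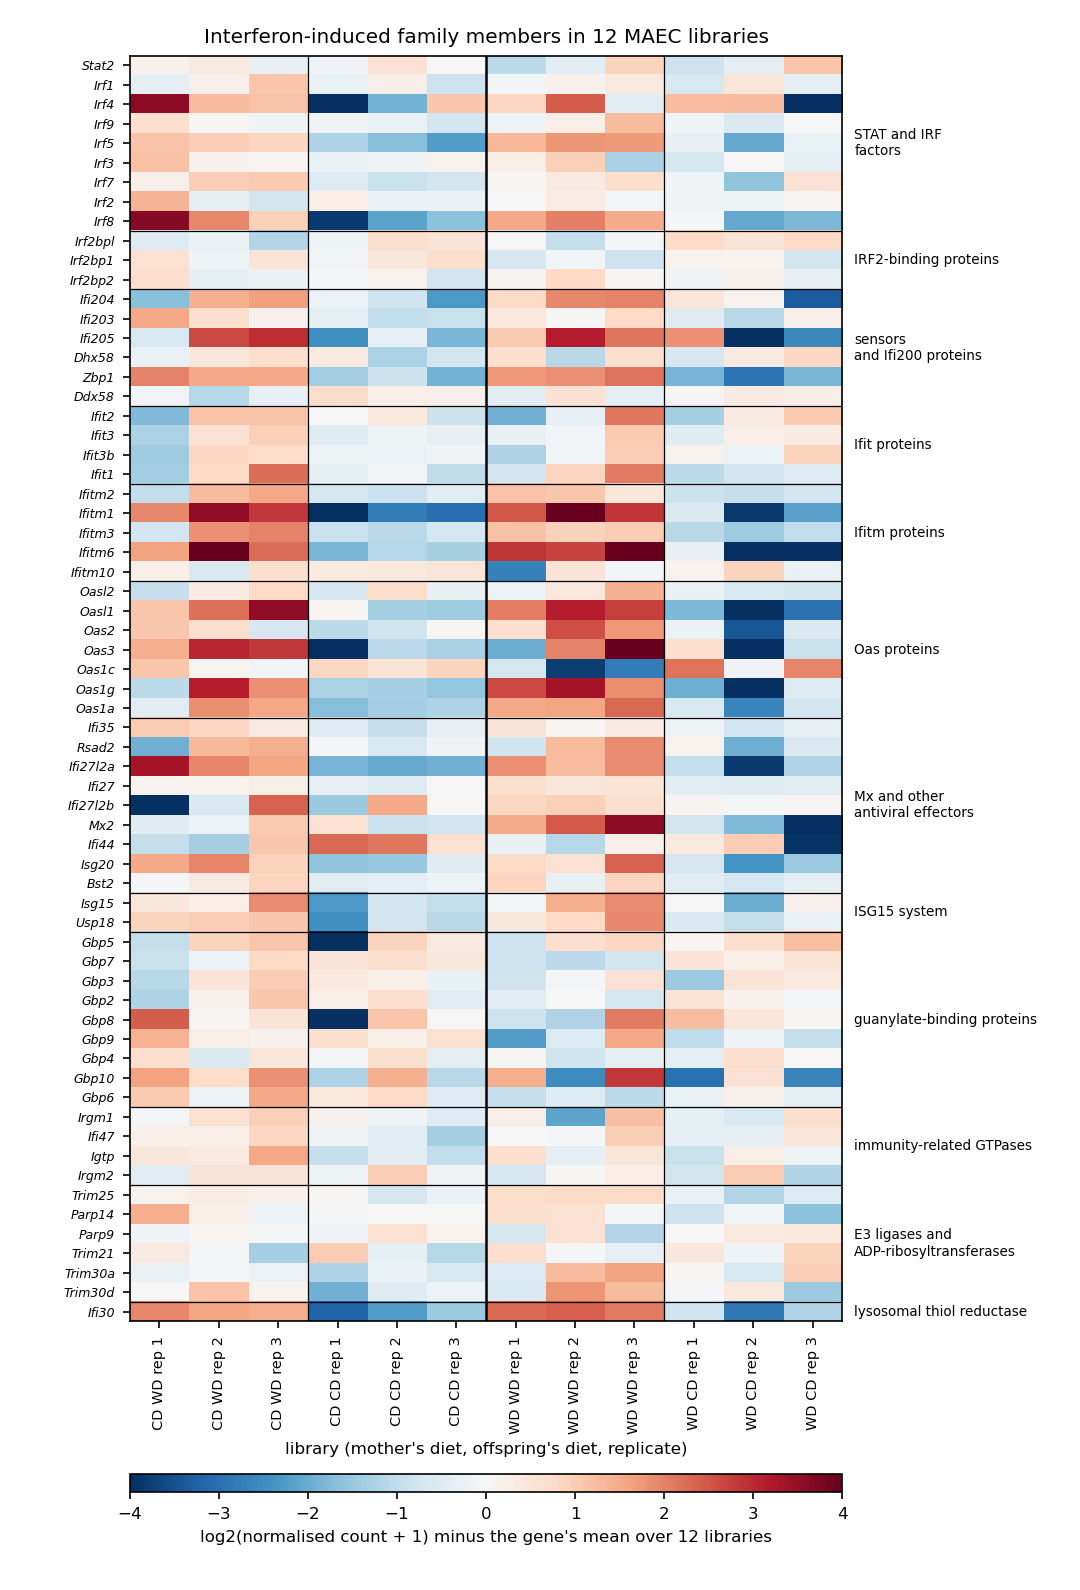
Level of the members reported here (rows, by role) in each of the 12 libraries (columns: CD_WD, CD_CD, WD_WD, WD_CD); colour is log2(normalised count + 1) minus the gene's mean over the 12 libraries, limited to 4 either way. Most Ifitm and Oas rows are high in WD offspring libraries, and the Gbp and Ifit rows change from library to library within a group.

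**Figure D2:**
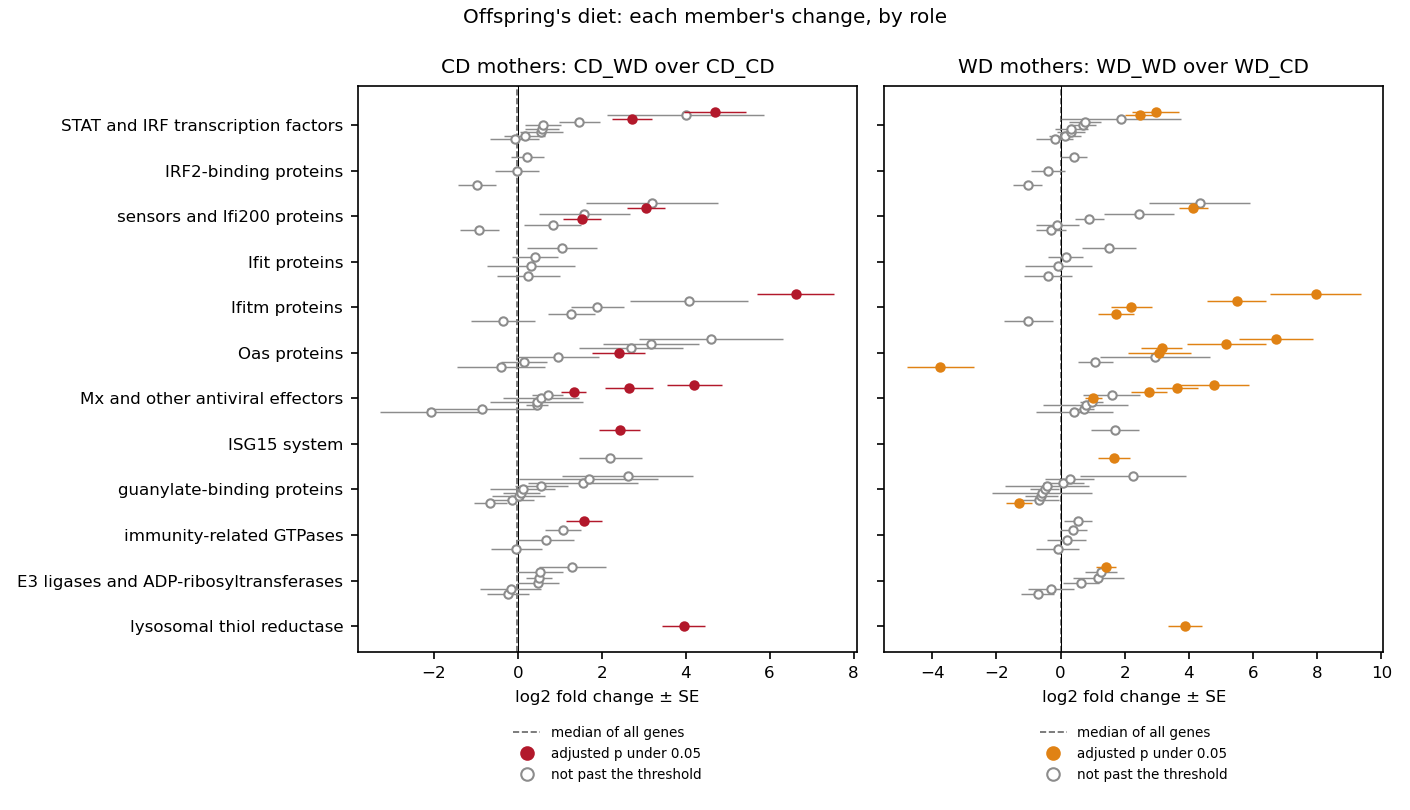
Log2 difference of each member reported here with its standard error, by role, for CD_WD over CD_CD and for WD_WD over WD_CD; filled points passed a limma adjusted p of 0.05, and the dashed line is the median over all genes. Filled points lie to the right of the dashed line with CD mothers, and on both sides of it with WD mothers.

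Among the transcription factors, Irf8 and Irf5 rose in WD offspring of both mothers' diets, while Stat2, Irf9, Irf1 and Irf7 did not pass in either comparison with all libraries fitted by limma. Irf8, a factor of macrophage, dendritic and B cell development that also drives interferon gamma targets, had 13723, 4111 and 2106 normalised counts in CD_WD, against 76, 246 and 352 in CD_CD. It had 3106, 4474 and 3049 in WD_WD, against 1058, 265 and 314 in WD_CD. Every WD offspring library was above every CD offspring library. The log2 difference was 4.70 ± 0.73 (SE, n = 3 each) with CD mothers, limma adjusted p = 0.00208, and 2.97 ± 0.73 with WD mothers, limma adjusted p = 0.0124. Without WD_CD replicate 2 the second call was lost, and over the 12 fits that leave out 1 library its limma adjusted p lay between 0.00234 and 0.0521. Irf5, a factor of inflammatory gene expression in macrophages, had 1057, 937 and 864 in CD_WD, against 201, 145 and 101 in CD_CD. It had 1199.6, 1632 and 1572 in WD_WD, against 391, 114 and 399 in WD_CD. Its WD offspring values were all higher and close together. The difference was 2.72 ± 0.47 with CD mothers, limma adjusted p = 0.00317, and 2.47 ± 0.47 with WD mothers, limma adjusted p = 0.00345.

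Stat2 and Irf9 carry the type I response in the nucleus. Stat2 had 373, 418 and 268 in CD_WD, against 301, 496 and 325 in CD_CD, and its log2 difference was -0.07 with CD mothers and -0.18 with WD mothers. Irf9 differed by 0.58 and 0.70 and did not pass. Irf1, a target and mediator of interferon gamma, had 2094, 3126 and 5933 in CD_WD, against 2284, 3199 and 1537 in CD_CD; its groups overlapped. Irf7, which amplifies type I interferon production, had 601, 1034 and 1074 in CD_WD, against 359, 281 and 311 in CD_CD, with no overlap and a difference of 1.47, limma adjusted p = 0.0627. It passed without WD_CD replicate 2 or 3 or CD_WD replicate 1, over a range of 0.0221 to 0.174, and by DESeq2 and when the compared groups were fitted alone. Its WD_WD values of 542, 664 and 839 overlapped the WD_CD values of 472, 169.7 and 772.

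The 3 Irf2-binding genes had 0 calls. Over all genes 9.46% were higher and 5.55% lower with CD mothers, and 14.2% and 10.2% with WD mothers. With 3 genes, 0 calls cannot be told from those shares. Irf2bpl, with the smallest p of them, differed by -0.97 with CD mothers and -1.03 with WD mothers.

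Nucleic-acid sensors were led by Zbp1, which binds Z-form nucleic acid and can start necroptosis. It had 913, 663 and 671 in CD_WD, against 87.4, 127 and 61.3 in CD_CD. It had 773, 826 and 1033 in WD_WD, against 62.4, 28.7 and 63.5 in WD_CD. The 6 WD offspring values lay within a narrow band far above the 6 CD offspring values. The difference was 3.06 ± 0.46 with CD mothers, limma adjusted p = 0.00167, and 4.14 ± 0.46 with WD mothers, limma adjusted p = 0.000344. Ifi203, of the DNA-binding Ifi200 family, had 1483, 801 and 563 in CD_WD, against 395, 254 and 274 in CD_CD, a difference of 1.53 ± 0.45, limma adjusted p = 0.0359. That call was lost without any 1 of 5 libraries (CD_CD replicates 1, 2 and 3 and CD_WD replicates 1 and 2), over a range of 0.0204 to 0.125, and the 0.89 with WD mothers did not pass. Its exons overlap those of Mndal. Of the RNA helicases that sense viral RNA, the members Ddx58 and Dhx58 did not pass: Ddx58 differed by -0.91 and Dhx58 by 0.83 with CD mothers, and by -0.30 and -0.11 with WD mothers. Ifi204 had 40.6, 354 and 408 in CD_WD, against 110.3, 74 and 25.6 in CD_CD, and 223, 493 and 519 in WD_WD, against 182, 144 and 12 in WD_CD; its differences of 1.59 and 2.46 did not pass.

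The Ifit proteins bind viral RNA and are among the most inducible products of type I interferon. They gave 0 calls of 4 in either comparison by limma, edgeR or DESeq2, and 0 at an unadjusted limma p under 0.05. Over all genes limma called 9.46% higher and 5.55% lower with CD mothers, and 14.2% and 10.2% with WD mothers. At the unadjusted threshold the shares were 30.2% and 38.8% of all genes. A list of 4 genes is too short to tell 0 calls from those shares. Ifit1 had 101, 460.3 and 1253 in CD_WD, against 206, 246 and 130.2 in CD_CD. It had 157, 479 and 1124 in WD_WD, against 128, 156 and 185 in WD_CD. CD_WD replicate 1 lay below all CD_CD values and WD_WD replicate 1 within the WD_CD values, and replicate 3 of each WD offspring group was its highest. The difference was 1.05 ± 0.84 with CD mothers, limma adjusted p = 0.445, and 1.50 ± 0.84 with WD mothers, limma adjusted p = 0.204. Ifit3 had 248, 893 and 1174 in CD_WD, against 429, 532 and 482 in CD_CD, and 488, 554 and 1243 in WD_WD, against 435, 731 and 750.3 in WD_CD. Summed over the 4 genes, the family had 434, 1881 and 2942 in CD_WD, against 879, 1074 and 795 in CD_CD, and 729.5, 1253 and 3231 in WD_WD, against 744, 1171 and 1446 in WD_CD. The family median was 0.36 with CD mothers and 0.05 with WD mothers, and leaving out 1 library at a time moved it from -0.06 to 1.19 and from -0.60 to 0.64. Without CD_WD replicate 1 all 4 genes were above 0 with CD mothers, with a median of 1.19, Ifit1 at 2.01 and Ifit3 at 1.09, and none passed. The 4 genes lie together at chr19:34550694-34650009.

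The Ifitm proteins, small membrane proteins that restrict virus entry, held the highest level of the families per length of exon and, in each comparison, the single gene with the largest log2 difference. Ifitm1 had 1438, 4484 and 2718 in CD_WD, against 6.24, 53.9 and 45.4 in CD_CD. It had 2132, 9006 and 2795 in WD_WD, against 253, 25.5 and 84.9 in WD_CD. The lowest WD offspring value was more than the highest CD offspring value in both comparisons. The difference was 6.62 ± 0.92 with CD mothers, limma adjusted p = 0.00129, and 5.50 ± 0.92 with WD mothers, limma adjusted p = 0.00178. Ifitm3 had 15366, 91924 and 103516 in CD_WD, against 14148, 12381 and 15933 in CD_CD. It had 59018, 49654 and 52079 in WD_WD, against 12114, 9749.7 and 13108 in WD_CD. CD_WD replicate 1 lay inside the CD_CD range, and the other 5 WD offspring libraries were far above every CD offspring library. Ifitm3 rose by 2.21 ± 0.63 with WD mothers, limma adjusted p = 0.0245; with CD mothers the 1.90 ± 0.63 did not pass, limma adjusted p = 0.0616. With CD mothers it passed at 2.79 without CD_WD replicate 1, and with all libraries kept it passed under a filter on the mean of at least 100 and by edgeR and DESeq2. Over the 12 leave-one-out fits the limma adjusted p ran from 0.000128 to 0.18 with CD mothers and from 5.23e-05 to 0.0752 with WD mothers, the second call being lost without any 1 WD_CD or WD_WD library.

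Ifitm2 behaved alike in its values, with 8645, 41169 and 48746 in CD_WD, against 10462, 9416 and 12298 in CD_CD, and 37364, 36036 and 23476 in WD_WD, against 9419, 8915 and 10211 in WD_CD. It passed with WD mothers at 1.73 ± 0.57, limma adjusted p = 0.0431, a call kept in 3 of the 12 leave-one-out fits and lost without any 1 CD_CD, WD_CD or WD_WD library, over a range of 0.000329 to 0.109. Ifitm6 had 760.3, 690 and 2459 in WD_WD, against 84.8, 0 and 0 in WD_CD, and rose with WD mothers, limma adjusted p = 0.00229. In CD_WD it had 319, 1845 and 494, against 28.8, 47.4 and 41.4 in CD_CD, with no overlap, limma adjusted p = 0.0703. Ifitm10 lies outside the cluster of the others and had its differences below 0, at -0.35 and -1.01, with 0 calls. Ifitm1, Ifitm2, Ifitm3 and Ifitm6 lie with Irf7 at chr7:140954837-141266481.

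**Figure D3:**
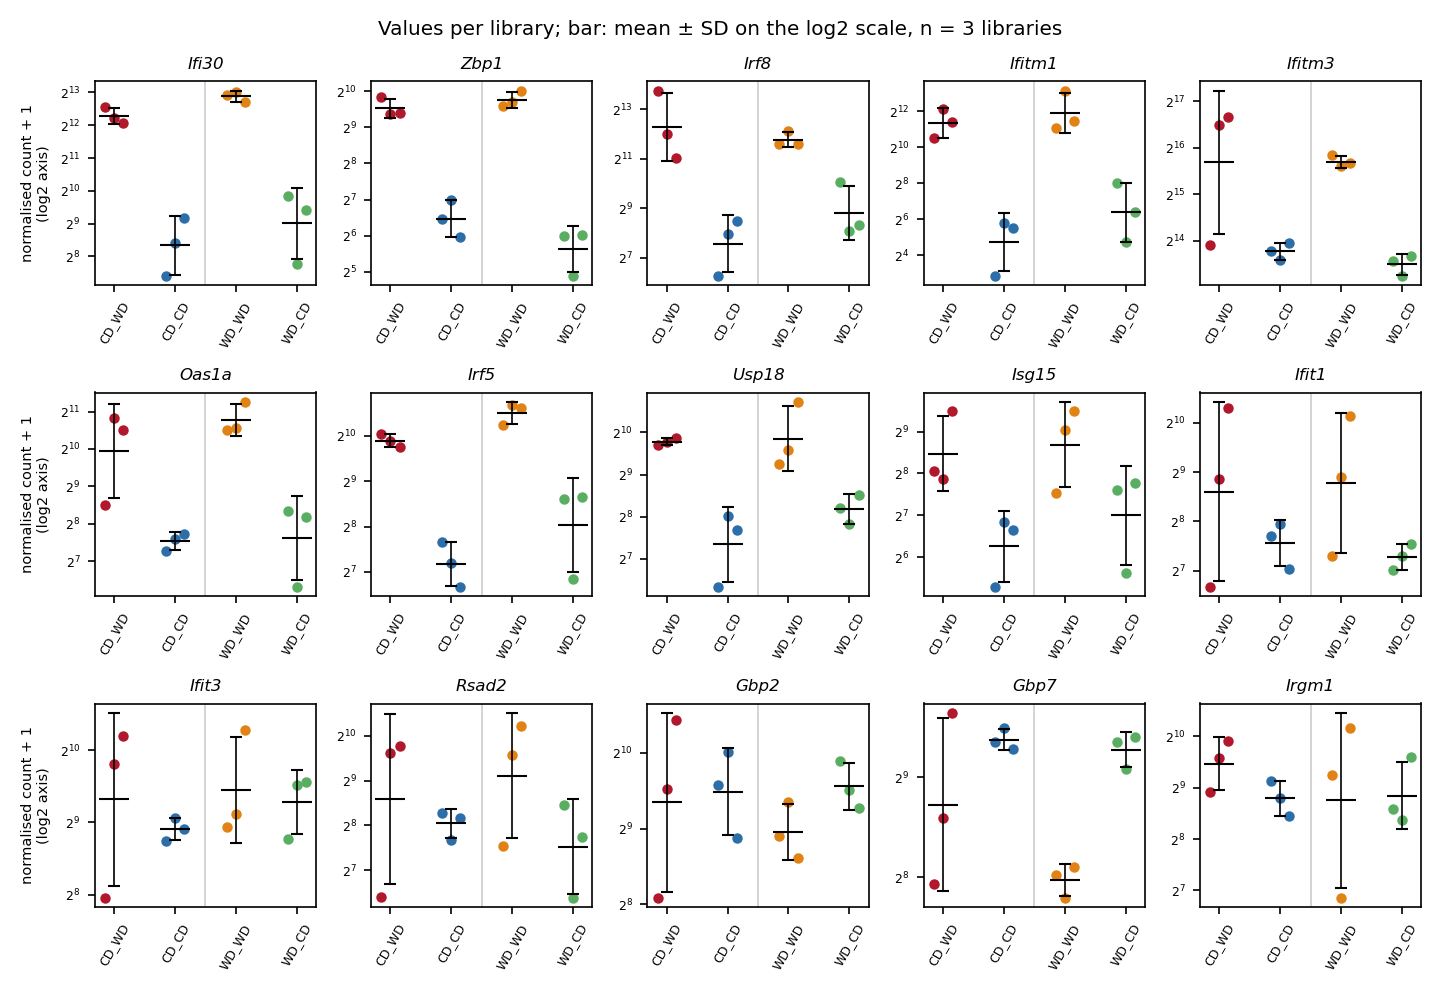
Normalised counts of 15 members in each library (points, log2 axis) with the mean and SD on the log2 scale (bars, n = 3) for CD_WD, CD_CD, WD_WD and WD_CD. Ifi30, Zbp1, Irf8 and Ifitm1 separate WD offspring from CD offspring in all 12 libraries, while Ifit1, Ifit3, Rsad2, Gbp2 and Irgm1 overlap.

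Several Oas proteins, though not every one, make a messenger that activates RNase L when they meet double-stranded RNA. Of the 7 members measured, 1 rose with CD mothers (14.3%, against 9.46% of all genes). With WD mothers 4 rose (57.1%, against 14.2% of all genes) and 1 fell (14.3%, against 10.2%). Oas1a had 365, 1808 and 1456 in CD_WD, against 153, 193 and 213 in CD_CD. It had 1449, 1498 and 2455 in WD_WD, against 326, 78.9 and 292 in WD_CD. Both comparisons were free of overlap, with CD_WD replicate 1 nearest to the CD offspring. The difference was 2.41 ± 0.63 with CD mothers, limma adjusted p = 0.0233, and 3.15 ± 0.63 with WD mothers, limma adjusted p = 0.00453. The first call was lost without any 1 of CD_CD replicates 1, 2 and 3 and CD_WD replicates 2 and 3, over a range of 0.00237 to 0.0871. Oas1g, whose printed ISRE run and flanks have the letters of the Oas1a run, had 30.4, 579.6 and 232 in CD_WD, against 26.4, 24.9 and 21.1 in CD_CD, and 408, 657 and 238 in WD_WD, against 15.7, 0.797 and 44.8 in WD_CD. It rose by 5.17 ± 1.23 with WD mothers, limma adjusted p = 0.0106, and did not pass with CD mothers, limma adjusted p = 0.16.

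Oas1c, the neighbour that carries the run on the opposite strand, fell with WD mothers. It had 20.5, 1.52 and 3.96 in WD_WD, against 155, 30.3 and 132 in WD_CD, a difference of -3.75 ± 1.04, limma adjusted p = 0.0217. In CD_WD it had 73.5, 35.6 and 31, against 60.7, 49.4 and 63.3 in CD_CD, with overlap. These are low values, and the call was lost without WD_CD replicate 1 or 3 or WD_WD replicate 2, over a range of 0.0113 to 0.0685. The 3 Oas1 copies are close relatives, so how shared reads were assigned bears on them. Oasl1, known in mice for restraining Irf7 translation, had 694, 1479 and 1156 in WD_WD, against 47.9, 0 and 20.1 in WD_CD, and rose, limma adjusted p = 0.00199. Its CD_WD values of 365, 776 and 1949 were also above the CD_CD values of 176, 66.6 and 62.5, limma adjusted p = 0.0834. Oas2 had 77.1, 296 and 162 in WD_WD, against 40.3, 3.59 and 32.1 in WD_CD, and rose by 3.08 ± 0.99, limma adjusted p = 0.04, a call kept in 5 of the 12 leave-one-out fits and lost without CD_CD replicates 1, 2 or 3, WD_CD replicate 2, CD_WD replicate 2, or WD_WD replicates 2 or 3, over a range of 0.0322 to 0.129. Oasl2 differed by 0.15 and 1.08 and did not pass. Oas2, Oas3, Oas1c, Oas1g and Oas1a lie together at chr5:120730333-120907521.

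Of the Mx and other antiviral effectors, 3 of 9 rose with CD mothers (33.3%, against 9.46% of all genes). With WD mothers 4 of 9 rose (44.4%, against 14.2% of all genes). Ifi27l2a, a small hydrophobic interferon-induced protein, had 38952, 15059 and 11581 in CD_WD, against 1074, 955 and 1038 in CD_CD. It had 13866, 9085 and 14294 in WD_WD, against 2022, 275 and 1676 in WD_CD. The highest value of all was in CD_WD replicate 1, and no WD offspring library overlapped a CD offspring library. The difference was 4.21 ± 0.65 with CD mothers, limma adjusted p = 0.00209, and 3.64 ± 0.65 with WD mothers, limma adjusted p = 0.00252. Its neighbour Ifi27 had 4958, 4474 and 4684 in WD_WD, against 2348, 2279 and 2326 in WD_CD, and rose by 1.02 ± 0.26, limma adjusted p = 0.0141. In CD_WD it had 3509, 3482 and 3762, against 2515, 2226 and 3211 in CD_CD, limma adjusted p = 0.265. The spread within each Ifi27 group was small beside its level. Isg20, an RNA exonuclease, had 1194, 1611 and 794 in CD_WD, against 138, 146 and 298 in CD_CD, and 735, 631 and 2138 in WD_WD, against 263, 78.5 and 152 in WD_CD. It rose in both, by 2.66 ± 0.57, limma adjusted p = 0.00905, and by 2.76 ± 0.57, limma adjusted p = 0.00542.

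Ifi35, which binds the interferon-induced protein Nmi, had 3461, 3074 and 2189.8 in CD_WD, against 1191, 897 and 1380.4 in CD_CD, and rose with CD mothers by 1.33 ± 0.30, limma adjusted p = 0.0127. It lost that call without CD_CD replicate 2, over a range of 0.00963 to 0.0679. With WD mothers it had 2433, 1799 and 2142 in WD_WD, against 1478, 1005 and 1374 in WD_CD, limma adjusted p = 0.0947. Ifi35 shares exon positions with an antisense gene. Mx2 belongs to a family of dynamin-like antiviral GTPases, but the gene annotation used here lists it as a polymorphic pseudogene. It had 92.5, 183 and 396 in WD_WD, against 19.1, 8.77 and 0.669 in WD_CD, and rose by 4.78 ± 1.11, limma adjusted p = 0.00968. Its CD_WD values of 22.8, 27.2 and 67.1 overlapped the CD_CD values of 49.3, 17.2 and 18.7. Rsad2, or viperin, had 83.7, 780.5 and 877 in CD_WD, against 309, 204 and 288 in CD_CD, and 185, 767 and 1196 in WD_WD, against 349.6, 82.5 and 214 in WD_CD. As with Ifit1, replicate 1 of both WD offspring groups lay within or below the CD offspring values, and the differences of 0.55 and 1.59 did not pass. Bst2, or tetherin, differed by 0.71 and 0.97 and did not pass in either; its call with WD mothers was gained without CD_WD replicate 1 or WD_WD replicate 2. Ifi44 had 27.9, 20.9 and 115 in CD_WD, against 264, 240.3 and 83.2 in CD_CD, with overlap and no call.

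The protease Usp18 removes the ubiquitin-like modifier encoded by Isg15. By limma Usp18 was called higher in both comparisons and Isg15 in neither, though their log2 differences were close. Usp18 also dampens type I interferon receptor signalling. It had 827, 879 and 933 in CD_WD, against 80.1, 258 and 206 in CD_CD. It had 611, 766 and 1695 in WD_WD, against 297, 226 and 368 in WD_CD. All WD offspring values were above all CD offspring values. The difference was 2.43 ± 0.49 with CD mothers, limma adjusted p = 0.00635, and 1.67 ± 0.49 with WD mothers, limma adjusted p = 0.0272. The second was lost without WD_CD replicate 1 or 2 or WD_WD replicate 3, over a range of 0.017 to 0.0975. Isg15 had 266, 232 and 721 in CD_WD, against 38.2, 114 and 99.4 in CD_CD, and 185, 526 and 717 in WD_WD, against 193, 48.2 and 216 in WD_CD. CD_WD did not overlap CD_CD, while WD_WD replicate 1 lay inside WD_CD. The differences were 2.21 ± 0.75, limma adjusted p = 0.0649, and 1.69 ± 0.75, limma adjusted p = 0.114. The first passed by DESeq2, and by limma without WD_CD replicate 2, at the low end of a range of 0.0442 to 0.221. Its ISRE run, printed above, joins 3 overlapping cores.

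The guanylate-binding proteins are GTPases that attack intracellular vacuoles and are textbook targets of interferon gamma. With CD mothers they gave 0 calls of 9 by limma, edgeR or DESeq2, against 9.46% of all genes higher and 5.55% lower by limma. At an unadjusted limma p under 0.05 they gave 0, against 30.2% of all genes. With WD mothers 1 was called lower (11.1%, against 10.2% of all genes) and 0 higher (against 14.2%). With 9 genes, these call counts are near the shares of all genes. Summed over the 9, they had 2447, 2448 and 4294 in CD_WD, against 2764, 3521 and 2223 in CD_CD, and 1567, 1791 and 2633 in WD_WD, against 2439.7, 2954 and 2581 in WD_CD. The groups overlapped in both comparisons. The family median was 0.12 with CD mothers and -0.50 with WD mothers, and stayed below 0 with WD mothers in all 12 leave-one-out fits, between -0.58 and -0.15. Gbp7 was the one that fell, with 259, 221 and 273 in WD_WD, against 652, 539 and 673 in WD_CD, a difference of -1.30 ± 0.40, limma adjusted p = 0.0344. Its groups were tight, yet the call was kept in only 4 of the 12 leave-one-out fits and lost without CD_CD replicate 2 or 3 or any 1 WD_CD or WD_WD library, over a range of 0.00939 to 0.0905. In CD_WD it had 243, 385 and 798, against 651, 719 and 622 in CD_CD, with overlap. Gbp2 had 271, 732 and 1382 in CD_WD, against 763, 1031 and 467 in CD_CD, and 478, 649 and 392 in WD_WD, against 946, 729 and 618 in WD_CD. Gbp4 differed by 0.09 and -0.50, and Gbp8 by 2.62 with CD mothers, with no call; their exons overlap each other's or those of Gbp9. The genes form a cluster at chr3:142493978-142638008, which holds Gbp7 and Gbp2, and another at chr5:105014150-105293698.

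Among the 4 immunity-related GTPases, which act beside the Gbp proteins on vacuoles, Igtp rose with CD mothers (25%, against 9.46% of all genes). It had 1174, 1119 and 2528 in CD_WD, against 451, 639 and 433 in CD_CD, a difference of 1.58 ± 0.43, limma adjusted p = 0.0271. The call was lost without CD_CD replicate 1, 2 or 3 or CD_WD replicate 3, over a range of 0.0231 to 0.0958. With WD mothers it had 1367, 673 and 1196 in WD_WD, against 460.3, 1019 and 754 in WD_CD, with overlap. Irgm2, whose ISRE core and right flank match those printed for Igtp and whose exons overlap it, differed by -0.03 and 0.19. Irgm1, a regulator of autophagy, had 479, 766 and 966 in CD_WD, against 561, 445 and 348 in CD_CD, and its differences of 0.67 and -0.09 did not pass.

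Of the 6 E3 ligases and ADP-ribosyltransferases, 1 passed, Trim25, which rose with WD mothers (16.7%, against 14.2% of all genes). That share is near that of all genes. Trim25, a ubiquitin ligase that activates the sensor encoded by Ddx58, had 1600.3, 1639 and 1627 in WD_WD, against 799, 429 and 654 in WD_CD. The difference was 1.42 ± 0.31, limma adjusted p = 0.00708. In CD_WD it had 1069.9, 1172 and 1082, against 992, 604 and 808 in CD_CD, with no overlap, limma adjusted p = 0.313. The WD offspring libraries of each group lay closer together than the CD offspring libraries. Parp14 differed by 0.49 and 1.27 and Trim30a by 0.52 and 0.64, and neither passed; Parp14 with WD mothers passed without CD_WD replicate 1. Trim30d, with the smallest p of these genes with CD mothers, differed by 1.30.

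Ifi30, the lysosomal thiol reductase that unfolds antigens for presentation and is induced by interferon gamma, was among the clearest differences. It had 6037, 4762 and 4317 in CD_WD, against 169, 338 and 581 in CD_CD. It had 7827, 8310.2 and 6644 in WD_WD, against 907, 217 and 682 in WD_CD. The means were 5039 ± 893 in CD_WD and 363 ± 207 in CD_CD (SD, n = 3 each), a ratio of 13.9, and 7594 ± 857 in WD_WD and 602 ± 352 in WD_CD, a ratio of 12.6. On the log2 scale the difference was 3.95 ± 0.52 (SE) with CD mothers, limma adjusted p = 0.00123, and 3.88 ± 0.52 with WD mothers, limma adjusted p = 0.00064. Ifi30 kept its call in both comparisons in every one of the 12 leave-one-out fits. Antigen-presenting cells express it at high levels, and under each mother's diet the macrophage sums above were higher in WD offspring libraries. Within CD_WD, replicate 1 had the highest Ifi30, at 6037, the lowest macrophage sum, at 41328, and the highest B cell sum, at 335294. Within WD_WD, replicate 3 had the lowest Ifi30, at 6644, and the lowest macrophage sum, at 512702. Whether the content of macrophages or of other cells accounts for the Ifi30 difference was not tested.

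By response class, taken from background knowledge, 21 members are mostly type I targets and 17 mostly interferon gamma targets. Of the type I class 3 rose with CD mothers (14.3%, against 9.46% of all genes), median 0.83, and 8 rose (38.1%, against 14.2%) and 1 fell (4.76%, against 10.2%) with WD mothers, median 1.50. Of the gamma class 4 rose with CD mothers (23.5%, against 9.46% of all genes), median 0.67. With WD mothers 2 of the gamma class rose (11.8%) and 1 fell (5.88%), both shares below those of all genes, median 0.19. Within the gamma class, Irf8 and Ifi30 were called higher in both comparisons while no Gbp gene was called higher in either. Of the members with a promoter window, ISRE cores were in 6 of the 15 called higher in either comparison (40%) and in 19 of the 32 called in neither (59.4%). For GAS cores the counts were 7 of 15 (46.7%) and 7 of 32 (21.9%).

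Per length of exon, Ifitm3 had the highest level of the 67 in all 4 groups, at 103641 normalised counts per kb in CD_WD, 20877 in CD_CD, 79031 in WD_WD and 17193 in WD_CD. Ifitm2 and Ifi27l2a followed. Ifi30 was in place 4 in both WD offspring groups, with 5136 per kb in CD_WD and 7741 in WD_WD, and in place 8 in both CD offspring groups, with 369.8 per kb in CD_CD and 614 in WD_CD. Ifitm1 was in place 5 in both WD offspring groups, with 2632 per kb in CD_WD and 4245 in WD_WD, against place 50 in CD_CD and place 21 in WD_CD.

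**Figure D4:**
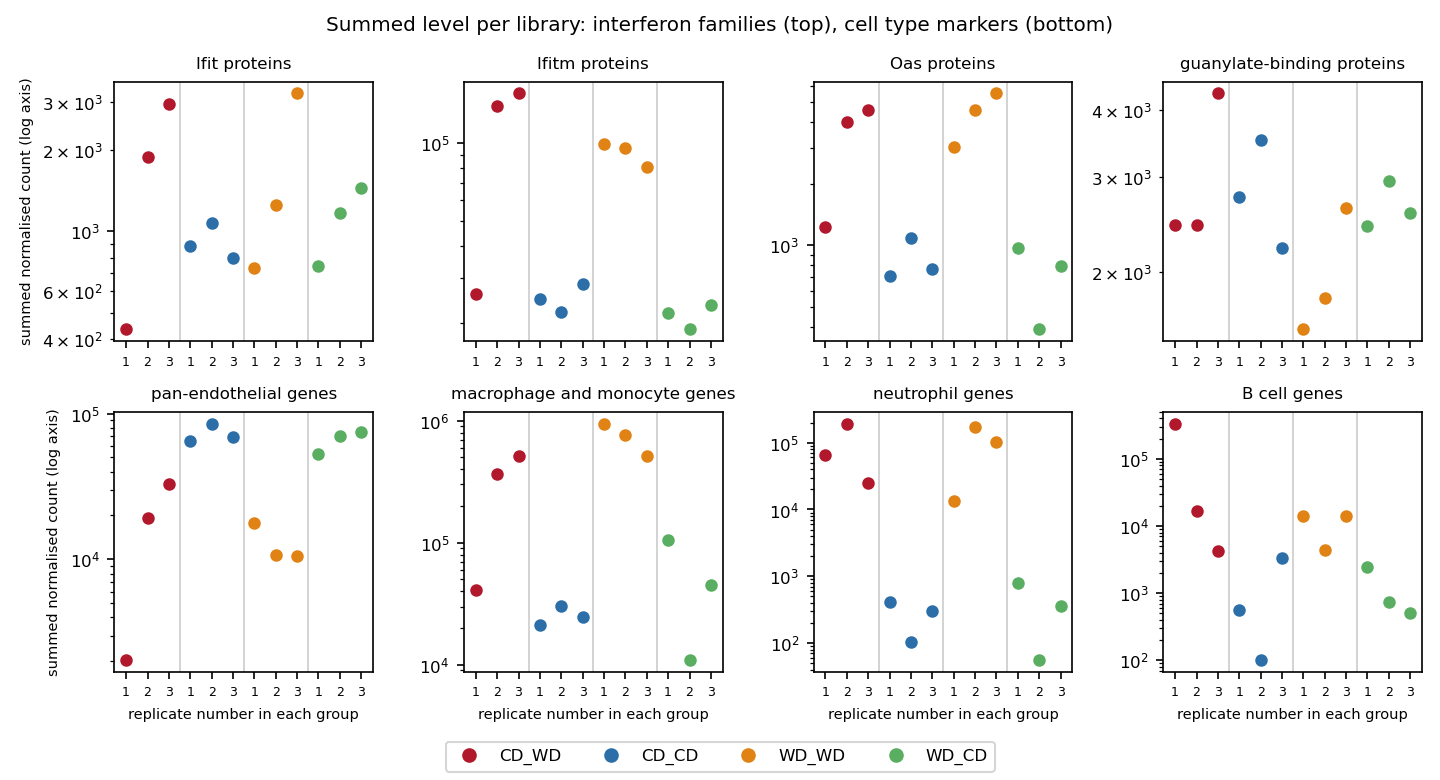
Summed normalised counts per library (log axis) of the Ifit, Ifitm, Oas and Gbp genes (top) and of pan-endothelial, macrophage and monocyte, neutrophil and B cell markers (bottom), with CD_WD, CD_CD, WD_WD and WD_CD side by side. Ifitm sums are between 80939 and 155699 in 5 of the 6 WD offspring libraries and 25928 in CD_WD replicate 1, against 18948 to 28515 in CD offspring libraries. The sums are not divided by a library's total over all genes, which is higher in WD offspring libraries.

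The series' own question concerns the mother's diet. In CD offspring, 0 members and 0% of all genes were called either way between WD_CD and CD_CD, and the same counts, 0 and 0%, held in WD offspring between WD_WD and CD_WD. At an unadjusted p under 0.05, limma gave 276 genes (2.59%) and 2 members (2.99%) in CD offspring. In WD offspring it gave 628 genes (5.89%) and 3 members (4.48%). Both member shares were near those of all genes. On reads recovered from the values, edgeR called 0 genes in both, and DESeq2 called 9 and 14 genes with 0 members. At an unadjusted p under 0.05, edgeR gave 182 genes (1.71%) and 1 member (1.49%) in CD offspring. For WD offspring the edgeR counts were 543 genes (5.1%) and 5 members (7.46%). The member median was 0.02 in CD offspring, beside -0.05 over all genes, and -0.08 in WD offspring, beside -0.03. In CD offspring, no member had all WD_CD values above all CD_CD values, against 4% of all genes, and Parp14, Gbp9 and Oasl1 had all values below (4.48%), against 4.87% of all genes. Oasl1, with the smallest p, had 47.9, 0 and 20.1 in WD_CD, against 176, 66.6 and 62.5 in CD_CD, a difference of -3.17 ± 1.15, limma adjusted p = 1. Next by p were Ifitm6 at -3.16, Ifi44 at -2.50, Zbp1 at -0.85 and Irf5 at 0.86, none of which passed.

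In WD offspring, Trim25, Ifi27, Mx2, Irf5 and Ifi30 had all WD_WD values above all CD_WD values, which is 7.46% of members against 5.86% of all genes. Gbp6 and Oas1c had all values below (2.99%), against 4.16% of all genes. Both shares were near those of all genes. Oas1c differed by -2.78, limma adjusted p = 0.836. Gbp6 had 51.4, 68.2 and 47.5 in WD_WD, against 205, 83.7 and 291 in CD_WD, a difference of -1.62, limma adjusted p = 0.836. Mx2 had 92.5, 183 and 396 in WD_WD, against 22.8, 27.2 and 67.1 in CD_WD, a difference of 2.41 that did not pass. Gbp7 at -0.75 and Trim25 at 0.55 came next by p. All 9 Gbp differences were below 0, with a median of -0.75 and between -0.95 and -0.37 in the leave-one-out fits, and 16 of the 17 gamma class differences were, median -0.53. None passed, and the Gbp genes are not independent of each other, as some neighbours share exon positions.

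**Figure D5:**
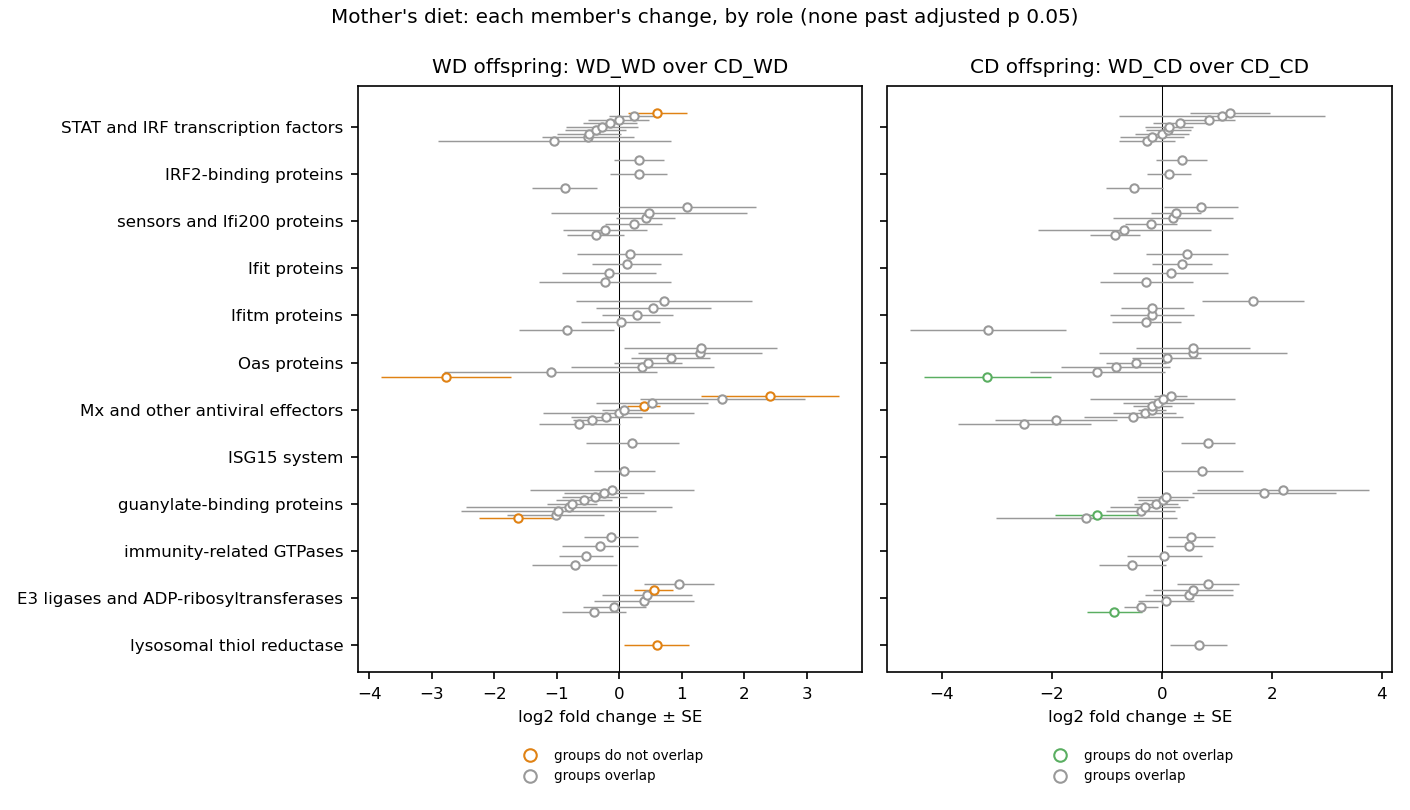
Log2 difference of each member reported here with its standard error, by role, for the mother's diet in WD offspring (WD_WD over CD_WD) and in CD offspring (WD_CD over CD_CD); coloured points are members whose groups do not overlap, and none passed a limma adjusted p of 0.05. The Gbp points all lie below 0 in WD offspring.

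Whether the offspring's diet acted differently under WD mothers and CD mothers was tested as an interaction. No member and 0% of all genes passed in either direction by limma. At an unadjusted limma p under 0.05 there were 342 genes (3.21%) and 3 members (4.48%). With edgeR 0 genes passed, and 306 genes (2.87%) and 2 members (2.99%) were under 0.05 unadjusted. DESeq2 called 10 genes and 0 members. The member with the smallest p was Mx2, at 4.33 ± 1.57, limma adjusted p = 0.997, followed by Oas1c at -3.35, Oasl1 at 3.54, Trim25 at 0.92 and Ifitm6 at 3.87. The lists called with WD mothers and CD mothers are therefore not shown to differ for any member.

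Elsewhere in the pathway, none of the 10 interferon genes listed was in the table, so ligand levels were not analysed here. Of 5 receptor chains measured, 1 rose with CD mothers (20%, against 9.46% of all genes) and 3 with WD mothers (60%, against 14.2%). Ifngr2, the signalling chain of the gamma receptor, had 892, 789 and 807 in CD_WD, against 354, 373 and 244 in CD_CD, and 1266, 1499.8 and 1485 in WD_WD, against 646, 378 and 239 in WD_CD. It rose by 1.38 ± 0.37, limma adjusted p = 0.0261, and by 1.86 ± 0.37, limma adjusted p = 0.00431. Ifnar2 rose by 1.80, limma adjusted p = 0.00549, and Il10rb, shared by interferon lambda and interleukin receptors, by 1.62, limma adjusted p = 0.035, both with WD mothers. The 3 kinases Jak1, Jak2 and Tyk2 gave 0 calls, and 0 at an unadjusted limma p under 0.05. At that threshold the shares of all genes were 30.2% with CD mothers and 38.8% with WD mothers. A list of 3 genes is too short to tell 0 from such shares. Of 6 inhibitors 2 rose in both comparisons (33.3%, against 9.46% and 14.2% of all genes). They were the phosphatases Ptpn6, by 3.77 and 2.79, and Ptpn1, by 1.47 and 2.16. Ptpn6 is mainly a leukocyte gene. Of 12 upstream sensors and adaptors 0 passed with CD mothers, against 9.46% of all genes higher and 5.55% lower. There 3 had an unadjusted limma p under 0.05, against 30.2% of all genes: Tlr3, which was lower, and Tlr7 and Ikbke, which were higher. With WD mothers the RNA sensor Ifih1 rose by 2.58, limma adjusted p = 0.0159, and Tlr4 fell by 2.03, limma adjusted p = 0.0337. Each is 8.33% of the 12, against 14.2% of all genes higher and 10.2% lower.

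A further 51 interferon-induced genes outside the families gave 12 higher (23.5%) and 1 lower (1.96%) calls in each offspring comparison and 0 for the mother's diet. Over all genes the shares were 9.46% higher and 5.55% lower with CD mothers, and 14.2% higher and 10.2% lower with WD mothers. The chemokine Ccl5 had 13356, 5528 and 3518 in CD_WD, against 46.1, 67.8 and 53.2 in CD_CD, and 3290.5, 3148 and 1952 in WD_WD, against 23.3, 61.8 and 38.1 in WD_CD, with limma adjusted p = 7e-05 and 8.63e-05. Slfn2, which keeps T cells and monocytes quiescent, rose by 3.50 and 3.47, and the exonuclease Trex1 by 3.10 and 3.57. The chemokine Cxcl10 had 449, 2747 and 5276 in CD_WD, against 327, 91.1 and 134 in CD_CD, and 2391, 4874 and 3908 in WD_WD, against 286, 141 and 225 in WD_CD. Its lowest WD offspring value was in CD_WD replicate 1. The genes that fell were Slfn5, by 1.98 on the log2 scale with CD mothers, and Tnfsf10, which fell by 3.23 with WD mothers.

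The authors' deposited table of comparisons, which covers the mother's diet, lists 13 genes with an adjusted p under 0.05 in CD offspring and 36 in WD offspring. In that deposited table no member passed in either, the authors' lowest member adjusted p being 1.0 in CD offspring and 0.185 in WD offspring.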

How the data were processed

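Total RNA of mouse aortic endothelial cells was sequenced on an Illumina instrument, per the labels' protocols. The submitters' processing notes name HISAT2 2.2.1, featureCounts 2.0.1, DESeq2, SAMtools 1.13, Trim Galore 0.6.10 and FastQC 0.12.1, and the builds GRCm38 and mm10. Not given in the sources used here are strand handling and the treatment of multi-mapping reads. In the table of expression values the authors deposited, with 10655 genes and 12 libraries, each value is a signal that from its steps is a read count divided by a factor per library, called a normalised count here: all 127860 values came out as whole reads (100%, within 0.01 of a read) once divided by the value of 1 read. The lowest gene mean was 15.8, and genes below that level were not analysed here. The authors' deposited log2 fold changes and p-values cover the mother's diet only, and were read only for the counts given.

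The main fit was limma 3.58.1 in R 4.3.3 with a mean-variance trend on log2(normalised count + 1), a mean per group over all 12 libraries, and Benjamini-Hochberg adjustment over all genes, called under 0.05. The pseudocount understates differences of low genes. Reads recovered from the values were tested with edgeR 4.0.16 and DESeq2 1.42.0 as alternatives, beside another pseudocount, a filter on the mean, TMM scaling, a replicate block, the compared groups alone, and each library left out in turn. The fitting steps were tested on simulated data. Depth per library sets the precision of low members, several of which had no reads in 1 or 2 libraries. Overlapping, antisense and multi-copy genes are uncertain. Gene positions came from GENCODE on GRCm38.

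Values of some members are not reported here, though they are in the counts, medians and sums over members. Members and lists were chosen with earlier results of these data known. Named were the 12 largest called members per direction and offspring comparison, the member of smallest p per role and comparison, the 5 of smallest p for each mother's diet comparison and the interaction, a set of well-known members, and of each pathway class the 3 called with the smallest p.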

Additional observations from a re-analysis of the deposited data

How the results depend on the processing

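Members called with CD mothers numbered 13 under TMM scaling, no filter and the replicate block, 15 with a pseudocount of 5, 14 with edgeR and 23 with DESeq2; with WD mothers they numbered between 18 and 23 under the same settings, against 21. DESeq2 with CD mothers added Ifi205, Ifitm2, Ifitm3, Ifitm6, Irf7, Isg15, Oas1g, Oas3 and Oasl1, among others. For the mother's diet, DESeq2 called 9 genes in CD offspring and 14 in WD offspring, and 10 for the interaction; a pseudocount of 5 and the replicate block each gave 1 gene in WD offspring, and no setting called a member. With the compared groups fitted alone, 13 and 20 members passed, 9 and 19 of them shared with the full fit. Leaving out 1 library at a time gave 8 to 16 members and 698 to 1714 genes with CD mothers, and 14 to 25 members and 1593 to 3335 genes with WD mothers, against 1599 and 2604 genes in the full fit. The lowest member counts came without CD_CD replicate 2 for CD mothers and without WD_CD replicate 2 for WD mothers. Member medians then lay between 0.63 and 1.09 (the highest without CD_WD replicate 1) and between 0.70 and 0.91. The mother's diet gave 0 to 3 genes in CD offspring, with 3 without WD_CD replicate 2, and 0 to 10 in WD offspring, with 10 without WD_WD replicate 1; the interaction gave 0. Of the called members, 8 of 13 and 13 of 21 kept their call under every setting other than the filter on the mean. The cause of these changes was not tested. Replicate numbers did not pair the samples: the 18 same-numbered pairs correlated between -0.232 and 0.074, and with the replicate block 13 members were called with CD mothers and 20 with WD mothers. Depth limits what can be said of Irf4, Gbp8, Oasl1, Oas3 and Ifitm6, each without reads in at least 1 library.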

Other observations

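Members without reads included Irf4 in CD_CD replicate 1 and WD_CD replicate 3, Gbp8 in CD_CD replicate 1, Oasl1 and Oas3 in WD_CD replicate 2, and Ifitm6 in WD_CD replicates 2 and 3. WD_CD replicate 2 had the lowest value of its group for 36 of the 67 members, CD_WD replicate 1 for 35 and WD_WD replicate 1 for 31. Irf4, a factor of lymphocyte and dendritic cell development, had 454, 90 and 83.5 normalised counts in CD_WD, against 0, 9.4 and 80.3 in CD_CD, with its highest value in CD_WD replicate 1, the library with the highest B cell marker sum. Ifi205 had 68.5, 676 and 838 in CD_WD, against 18.7, 85.4 and 29.6 in CD_CD, and 226, 961 and 483 in WD_WD, against 386, 0.797 and 17.4 in WD_CD. Both had no call, and replicate 1 of CD_WD was the lowest of its group for Ifi205.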
